A study of Mus musculus with 39 samples.

Results

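Dura mater is the outer membrane around the brain, and 10 of the 39 libraries of this mouse study hold dura that received saline and no collagenase. The study models pain that is referred from a chewing muscle to the head, and its other libraries hold 12 collagenase-treated dura samples and masseter muscle. In 4 of the 10 libraries the label places the saline in the temporal muscle, a chewing muscle that lies on the side of the skull (saline in TM). The other 6 are labelled as saline with no site, and their titles call them naive (naive-titled saline). The labels therefore do not say whether the 6 were injected, nor with what volume the 4 were. Membership followed these labels alone: dura, no collagenase, a 2-day time point and single-end reads, which left all 10.

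All 10 were wild-type and taken at 2 days. Strain, age and sex are not in the labels; the titles of naive-titled saline carry the letter F in 3 libraries and the letter M in 3. No label ties a library to an animal, and every p-value below therefore rests on library-to-library spread, which may be partly technical. The titles of saline in TM and of naive-titled saline follow separate schemes, so a shared day of dissection or library preparation and the injection cannot be told apart.

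The dura holds fibroblasts that lay down a dense collagen matrix, blood and lymph vessels, resident macrophages and mast cells, and endings of trigeminal nerve fibers. Its outer face adheres to the skull, where osteoblasts build bone, osteoclasts resorb it and marrow makes neutrophils and B cells. Its inner face lies on the arachnoid and brain, and the pineal gland sits beneath it at the meeting of the large venous sinuses. To reach it, skin, temporal muscle and skull have to be opened, so transcripts of these neighbours can be carried into a dura sample. In bulk RNA, fewer cells of a type and less RNA per cell cannot be told apart.

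Summed counts were 22.8 M, 19.7 M, 24.7 M and 32.3 M in saline in TM, against 23.1 M to 26.3 M in naive-titled saline. Genes with at least 1 count per M counts of their library numbered 14796 ± 120 in saline in TM and 14520 ± 112.5 in naive-titled saline (SD, n = 4 and 6; exact two-sided permutation p = 0.00952, adjusted p = 0.0286 over 3 library measures). The first principal component held 44.4% of the variance and placed the 4 saline in TM libraries (20.6 to 46.8) apart from the 6 naive-titled libraries (−41.0 to −14.7). Library 4 of saline in TM stood apart on the second component, which held 23% of the variance, at −52.5. Levels are given as CPM, the counts of a gene per M counts of its library after TMM scaling. Xist, the RNA that silences an X chromosome in female cells, had 0.09 to 0.36 CPM in saline in TM, 598 to 734 CPM in the F-titled and 1.17 to 3.33 CPM in the M-titled libraries. The Y-linked Eif2s3y was at 52.5 to 67.1 CPM in saline in TM, at 51.9 to 58.1 CPM in the M-titled and at most at 0.082 CPM in the F-titled libraries. The 3 F-titled libraries thus differ from saline in TM in these sex-linked transcripts. Counts against the 3 M-titled libraries alone are given for many of the gene groups below. Named genes that lost their call there are listed with the processing settings.

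Of 15828 genes tested, 4721 (29.8%) differed between saline in TM and naive-titled saline at an adjusted p under 0.05 in edgeR's quasi-likelihood test. They split into 2375 higher (15%) and 2346 lower (14.8%) in saline in TM, and their median absolute log2 fold change was 0.51. The change was at least 1 log2 unit in 554 of the higher genes (3.5% of the tested) and in 229 of the lower genes (1.45%), or 783 genes (4.95%) in all. CPM values of the groups did not overlap in 3231 genes (20.4%). Against the M-titled libraries alone 2160 genes were called, of which 2058 (95.3%) were also called with all 6 and in the same direction. On log2(TPM + 1) values limma called 2841 higher and 1710 lower, a split further toward the higher side. With the 12 collagenase libraries in the same fit to share one estimate of the spread, the count was 789. The shares of 15% and 14.8% are the background for every gene group below, beside a median log2 fold change of −0.00 over all tested genes.

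Genes of dura cells were detected in both groups. All 18 meningeal fibroblast genes, all 14 genes of the arachnoid barrier and dural border, and 19 of 20 endothelial genes passed the filter on low counts. That measure does not set dura apart from its neighbours, since all 23 muscle, 15 brain neuron and 10 pineal genes passed too. Foxc1, a transcription factor of meningeal development, was at 125, 125, 144 and 90.5 CPM in saline in TM, against a lowest, median and highest value of 152, 166 and 206 CPM in naive-titled saline. Slc47a1, a transporter of meningeal fibroblasts, was at 343 to 573 CPM in saline in TM and at 555 to 643 CPM in naive-titled saline. The adult pituitary hormones Gh and Prl reached at most 2.83 CPM.

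Skeletal muscle transcripts rose in saline in TM. Of 23 muscle genes 9, with Ckm, Myh4 and Acta1 among them, passed the filter on low counts only through saline in TM. Their direction was fixed by it, all 9 were called higher, and these 3 are described by their values. Of the 14 that passed in naive-titled saline alone 11 were higher and none was lower, with a median log2 fold change of 2.07. Myh4, the myosin heavy chain of fast fibers (GRCm38.p6, chr11:67237812-67260447), had 15.4, 13.6, 22.8 and 32 CPM in saline in TM, against a lowest, median and highest value of 0, 0.0209 and 0.0434 CPM in naive-titled saline. Ckm, muscle creatine kinase (chr7:19411094-19421583), had 13.7, 12.7, 25.9 and 34.4 CPM in saline in TM, against 0.0394, 0.189 and 0.459 CPM in naive-titled saline. Both genes were near 0 in every naive-titled library, above 10 CPM in every saline in TM library, and highest in libraries 3 and 4. The fitted log2 fold change was 9.67 ± 0.42 (SE) for Myh4 and 6.50 ± 0.43 for Ckm. For Acta1, the actin of the sarcomere, it was 5.67 ± 0.52. Atp2a1, the calcium pump of fast fibers, which passed the filter in naive-titled saline too, rose by 5.36 ± 0.35 log2 units (adjusted p = 7.85e-06).

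The 3 muscle genes that were not called were present in both groups. Actn3 was at 19.6, 19.7, 18.3 and 18.5 CPM in saline in TM and at 13.3 to 24.0 CPM in naive-titled saline, Eno3 at 23.6 to 40.3 CPM in saline in TM and at 22 to 28.4 CPM in naive-titled saline. Myh7, the slow and cardiac myosin, overlapped too, with 0.66 to 9.07 CPM in saline in TM and 0.369 to 5.33 CPM in naive-titled saline. Set against 4 masseter libraries of the series (saline in the masseter, day 28), the median muscle gene stood at 0.113%, 0.129%, 0.334% and 0.265% of its masseter TPM in saline in TM. In naive-titled saline that share was 0.0118% to 0.0220%. With the M-titled libraries alone as the comparison, 20 of 23 were higher. That is the count found with all 6, which includes the 9 genes whose direction the filter fixed. In the fit with all 22 dura libraries 1 of 23 was called higher, and collagenase-treated dura, read paired-end, reached 8617 CPM of Ckm.

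Several transcripts of salivary and lacrimal glands were higher in saline in TM as well. Of 26 gland genes 15 were tested, and 6 of these, among them Bpifa2, Smr3a, Dcpp1 and Spt1, passed the filter only through saline in TM; their direction was fixed by it, and they are described by their values. Of the 8 that passed in naive-titled saline alone 2 were higher and none was lower (median log2 fold change 0.46). Bpifa2, a secreted protein of parotid saliva (chr2:154008276-154016073), was at 44.7, 57.4, 38.7 and 51.3 CPM in saline in TM. In naive-titled saline it was at 0 in 5 libraries and at 0.164 CPM in the library titled F3. The 4 saline in TM values lie close together, and the fitted log2 fold change was 10.52 ± 0.39. F3 held 4 counts of Bpifa2, and without it the level in saline in TM was at least 383.6-fold higher by a floor of 3 counts per library. Smr3a, a protein of the submandibular gland, had 21.6, 24.7, 17.3 and 29.6 CPM in saline in TM, against 0.0431, 0.102 and 0.205 CPM (lowest, median, highest) in naive-titled saline (7.65 ± 0.24). Dcpp1, a secreted salivary protein, was at 1.72 to 2.84 CPM in saline in TM and at 0 in all 6 naive-titled libraries, which makes it at least 17.6-fold higher by that floor. Bhlha15 (MIST1), a transcription factor of secretory cells, rose by 1.38 ± 0.20 log2 units (adjusted p = 0.00104).

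A separate set of secreted proteins was far highest in library 4. The 17 secretoglobin genes of the Scgb1b and Scgb2b families, which code for androgen-binding proteins of gland secretions, summed to 10.5, 9.78, 23.8 and 241.5 CPM in saline in TM and to 0 in all naive-titled libraries. They are near-identical copies, so reads may be split among them and the sum is firmer than any single gene. With no reads in naive-titled saline, a copy could pass the filter only through saline in TM, which fixed its direction. Spt1, salivary protein 1, had 2.47, 3.14, 7.08 and 87.9 CPM in saline in TM, and at most 0.164 CPM in naive-titled saline. Bpifa2 did not follow this order, with its highest value in library 2.

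Epidermal genes rose in all 4 saline in TM libraries, and far most in library 3. Of 15 genes of epidermis and hair follicle 13 were tested. Of these, 5 passed the filter only through saline in TM, with Krt5, Krt14 and Dsg1a among them, and all 5 were called higher, in the direction that the filter fixed. Of the 8 that passed in naive-titled saline alone 5 were higher and none was lower, with a median log2 fold change of 1.20. Without library 3 of saline in TM 1 of the 13 was lower. Krt10, a keratin of the outer living epidermis (chr11:99385254-99397449), had 29.6, 29.8, 352 and 61.7 CPM in saline in TM, against 5.00, 6.61 and 7.26 CPM (lowest, median, highest) in naive-titled saline (4.20 ± 0.65, adjusted p = 0.00138; 2.66 without library 3). Krt5 and Krt14, the keratin pair of basal cells, reached 22.9 and 27 CPM in library 3, stood at 2.47 to 8.52 CPM in the other 3, and did not pass 0.0821 CPM in naive-titled saline. Hrnr, a cornified-layer protein of the filaggrin family, was at 12, 11.4, 173 and 25.8 CPM in saline in TM and at 0 in all 6 naive-titled libraries, at least 445-fold higher by the same floor, a bound that library 3 raises most. Dsg1a, Dsc1, Calm4 and Spink5, other genes of the upper epidermis, were also among the 15 largest rises. They and Hrnr did not pass 0.0411 CPM in any naive-titled library. They too passed the filter only through saline in TM, which fixed their direction, and are described by their values. Across the 10 called genes the median level in libraries 1, 2 and 4 was 11.6%, 13.7% and 29.6% of that in library 3.

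Tchh, a hair follicle protein, was the exception to that order: library 3 had its lowest value in saline in TM, 2.59 CPM against 4.15 to 4.89 CPM in the others. Epidermal and muscle genes did not share their highest library in every case, since Ckm and Myh4 were highest in library 4. Krt15, another epithelial keratin, was at 7.79 to 19.8 CPM in saline in TM and at 7.47 to 13.4 CPM in naive-titled saline, and was not called. Hrnr was at 0 in all 12 collagenase-treated dura libraries too, which were paired-end. In the fit with all 22 dura libraries 8 of the 13 genes were called higher, and against the M-titled libraries alone also 8.

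**Figure D1:**
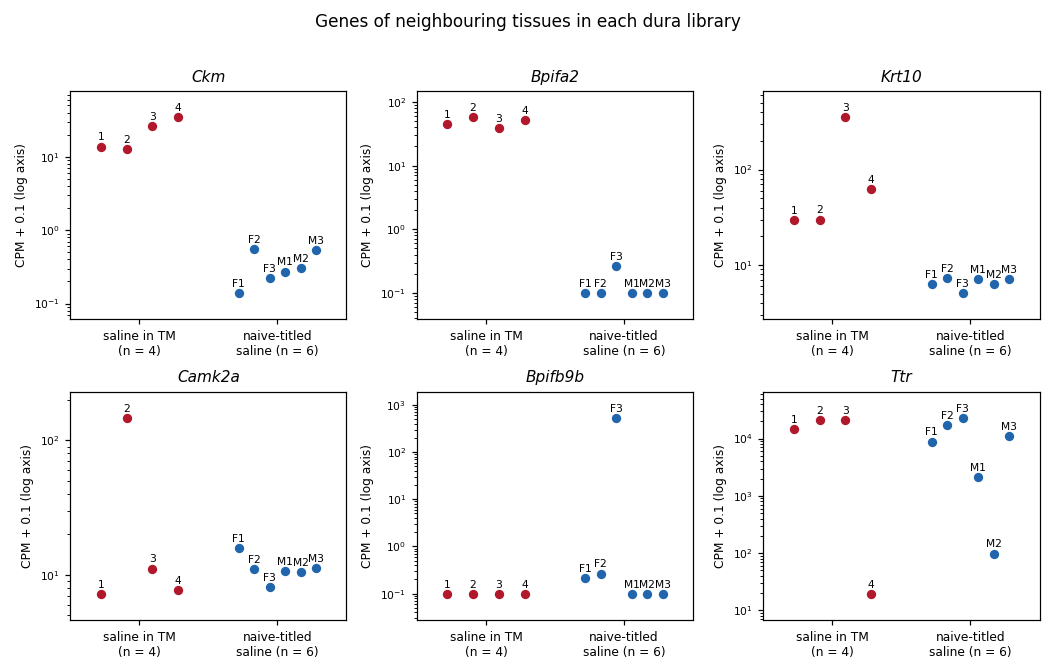
Level of 6 marker genes in each of the 10 libraries (CPM + 0.1, log axis; each point is 1 library, saline in TM left and naive-titled saline right). Ckm (muscle) and Bpifa2 (gland) separate the groups in every library, Krt10 (epidermis) peaks at 352 CPM in library 3, Camk2a (brain neuron) at 147 CPM in library 2 and Bpifb9b (nasal gland) at 529 CPM in the naive-titled F3, and Ttr (choroid plexus) ranges widely in both groups.

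Genes of brain neurons were higher in 9 of 15 cases and lower in none, with a median log2 fold change of 1.23 (7 of the 13 that passed the filter in naive-titled saline alone). Grin1, a subunit of the NMDA receptor, had 33.9, 68.5, 36.8 and 56.9 CPM in saline in TM, against 10.3, 15.6 and 16.9 CPM (lowest, median, highest) in naive-titled saline (1.74 ± 0.20, adjusted p = 4.26e-04). Syn1, a protein of synaptic vesicles, had 75.6, 134, 75.1 and 82.5 CPM in saline in TM, against 27.2, 38.6 and 43.4 CPM in naive-titled saline (1.33 ± 0.19, adjusted p = 0.00102). Neither gene overlapped between the groups. Library 2 stood apart for genes of forebrain excitatory neurons: Camk2a was at 147 CPM there and at 7.12 to 11.0 CPM in the other 3, Nrgn at 117 CPM and at most at 9.39 CPM, and Lamp5 at 26.2 CPM and at most at 0.324 CPM. The fitted log2 fold change of Lamp5 was 4.14 with library 2 and −0.67 without it. Camk2a was not called (1.94 ± 0.76, adjusted p = 0.0741), with 7.96 to 15.8 CPM in naive-titled saline. Without library 2, 9 of the 15 genes were called higher and 3 lower. Against the M-titled libraries alone 4 of 15 were called, and none in the fit with all 22 dura libraries. Genes of brain glia did not rise as groups. Of 10 genes of astrocytes and ependyma 1 was higher and 4 were lower. They summed to 638.5 to 758.3 CPM in saline in TM and to 795.9 to 981.4 CPM in naive-titled saline. Of 8 oligodendrocyte genes none was higher and 1 was lower.

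Pineal gland genes rose by smaller factors from a high level. Of 10 genes, 8 were higher and 1 was lower, with a median log2 fold change of 0.81. Rbp3, a retinoid-binding protein shared by retina and pineal gland, had 789, 1062, 1032 and 1646 CPM in saline in TM, against 496, 646 and 698 CPM (lowest, median, highest) in naive-titled saline (0.89 ± 0.18, adjusted p = 0.00483). Tph1, which makes the serotonin that melatonin derives from, had 1275, 1469, 1101 and 1444 CPM in saline in TM, against 602, 847 and 1035 CPM in naive-titled saline (0.68 ± 0.15, adjusted p = 0.00716); mast cells use it too. Crx, a transcription factor of pineal cells and photoreceptors, rose by 0.65 ± 0.12 (adjusted p = 0.0032). Asmt, the last enzyme of melatonin synthesis, went the other way, with 30.4, 20.3, 13.8 and 18.2 CPM in saline in TM, against 31.9, 39.2 and 51 CPM in naive-titled saline (−0.93 ± 0.20, adjusted p = 0.00626).

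Aanat, the enzyme before Asmt, whose transcript is known to rise at night in rat, had 21.6, 97, 69.4 and 137 CPM in saline in TM, against 10.4, 18.2 and 42.7 CPM in naive-titled saline (1.85 ± 0.48, adjusted p = 0.0143). Its groups overlapped through library 1. Several of the called genes with the smallest p at a mean of 50 CPM or more were neuronal or neuroendocrine. Celf3, a neuronal splicing factor (chr3:94478285-94496786), had 128, 185, 167 and 182 CPM in saline in TM, against 52.5, 63.3 and 73.9 CPM in naive-titled saline (1.40 ± 0.12, adjusted p = 6.53e-05). Chrnb4, a nicotinic receptor subunit (chr9:55028154-55048953), had 755, 908, 919.6 and 965 CPM in saline in TM, against 278, 414 and 438 CPM in naive-titled saline (1.17 ± 0.12, adjusted p = 2.85e-04). Neurod1, a transcription factor of neurons and endocrine cells, rose by 1.28 ± 0.14 (adjusted p = 3.06e-04). Every saline in TM library exceeded every naive-titled one for these 3 genes. In the fit with all 22 dura libraries no pineal gene was called, and against the M-titled libraries alone 5 of 10 were higher and 1 was lower.

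Choroid plexus and nasal transcripts varied inside the groups instead. Ttr, the thyroid hormone carrier that choroid plexus secretes, was at 14559, 20899, 21021 and 19.4 CPM in saline in TM, against 97.9, 9971 and 22934 CPM (lowest, median, highest) in naive-titled saline, and was not called (0.45 ± 1.27, adjusted p = 0.813). Libraries with hardly any and libraries with very much Ttr were found in both groups. Otx2, shared by choroid plexus and pineal gland, was the 1 of 10 choroid plexus genes that rose (0.83 ± 0.19, adjusted p = 0.00789). Bpifb9b, a protein of nasal glands, was at 529 CPM in the naive-titled library F3, at most at 0.167 CPM in the other 5 naive-titled libraries and at 0 in saline in TM. Obp1a, an odorant carrier of nasal secretions, was at 121 CPM in F3 and at 70.9 CPM in library 4 of saline in TM, with at most 5.83 CPM elsewhere. Of 15 genes of airway and nasal epithelium 7 were tested, 1 was lower (Omp, which passed the filter only through naive-titled saline) and none was higher, with a median log2 fold change of 0.05. Against the M-titled libraries alone 1 was higher and 1 lower, with a median of 1.74. Omp and S100a5, both proteins of olfactory sensory neurons, had lower levels in saline in TM. Both passed the filter only through naive-titled saline, so their direction was fixed by it and they are described by their values. Omp had at most 0.67 CPM in saline in TM, against 2.83, 5.92 and 41.1 CPM in naive-titled saline (log2 fold change −5.48 ± 1.18). S100a5 had at most 0.126 CPM in saline in TM, against 0.985, 3.69 and 16.3 CPM in naive-titled saline (log2 fold change −6.43 ± 1.18). Without the naive-titled M3 these were −4.81 and −5.73, and without library 1 of saline in TM Omp was at −6.09.

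Bone genes fell in saline in TM. Of 17 genes of osteoblasts and bone, 14 were lower and none was higher, with a median log2 fold change of −1.32. Of the 13 that passed the filter in saline in TM alone, 13 were lower. Bglap, osteocalcin (chr3:88383495-88384466), had 123, 174, 49.7 and 78.7 CPM in saline in TM, against 220.3, 643 and 1026 CPM (lowest, median, highest) in naive-titled saline. The groups did not overlap, and the log2 fold change was −2.56 ± 0.50 (adjusted p = 0.00391). Ibsp, bone sialoprotein, had 38, 32.6, 20.3 and 4.62 CPM in saline in TM, against 35, 71.1 and 181 CPM in naive-titled saline and overlapped (−1.91 ± 0.55, adjusted p = 0.0221; 0.057 without library 3). Alpl, the alkaline phosphatase of mineralising cells, fell by 0.61 log2 units (SE 0.15, adjusted p = 0.0121). Mepe, a protein of osteocytes buried in bone, was not called. It was at 40.6, 9.92 and 7.31 CPM in the naive-titled M3, F1 and M2. In F2, F3 and M1 it was at 0.287 to 0.52 CPM, and in saline in TM at 0.126 to 1.86 CPM.

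Osteoclast genes showed the same direction, with 9 of 10 lower and a median log2 fold change of −1.59; of the 7 that passed the filter in saline in TM alone 6 were lower. Acp5, the tartrate-resistant acid phosphatase that marks osteoclasts (chr9:22126727-22135746), had 103, 103, 42.6 and 29.5 CPM in saline in TM, against 138, 359 and 621 CPM in naive-titled saline (−2.41 ± 0.46, adjusted p = 0.00348). Ctsk, cathepsin K, which degrades bone collagen, had 187, 182, 126 and 115 CPM in saline in TM, against 335, 395 and 619 CPM in naive-titled saline (−1.53 ± 0.21, adjusted p = 9.21e-04). Neither overlapped between the groups. Of 11 cartilage genes 6 were lower and none was higher, among them Acan, the aggrecan core protein (−1.05 ± 0.23, adjusted p = 0.00745). In the comparison with only the M-titled libraries, 8 of 17 bone genes, 4 of 10 osteoclast genes and 5 of 11 cartilage genes were lower. With all 22 dura libraries in the fit these counts were 2, 4 and 0.

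Matrix genes of fibroblasts fell along with bone. Of 20 collagen genes 13 were lower and none was higher (median −0.70), and of 18 meningeal fibroblast genes 11 were lower and none was higher (median −0.47). Col1a2, a chain of type I collagen, had 3837, 3905, 2975 and 3715 CPM in saline in TM, against 4905, 9072 and 11346 CPM (lowest, median, highest) in naive-titled saline (−1.24 ± 0.27, adjusted p = 0.00671). Col6a3, a chain of the microfibril-forming type VI collagen, had 161, 136, 126 and 115 CPM in saline in TM, against 258, 355 and 476 CPM in naive-titled saline (−1.41 ± 0.18, adjusted p = 6.84e-04). Mgp, matrix Gla protein, an inhibitor of calcification (chr6:136872435-136875823), had 1717, 1537, 1644 and 1529 CPM in saline in TM, against 2742, 3669 and 4598 CPM in naive-titled saline (−1.22 ± 0.16, adjusted p = 6.84e-04). The 4 saline in TM values of Mgp span a narrow range below the lowest naive-titled library.

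Col4a1 and Col18a1, collagens of basement membranes, were not called. Col4a1 was at 382 to 579.9 CPM in saline in TM and at 407 to 560.1 CPM in naive-titled saline (−0.08 ± 0.13, adjusted p = 0.655), and Col18a1 at 110.5 to 184 CPM in saline in TM and at 108 to 145 CPM in naive-titled saline (0.19 ± 0.13, adjusted p = 0.285). Among matrix proteases and their inhibitors, 12 of 21 were lower and 1 was higher. Mmp2, a gelatinase of fibroblasts, fell by 1.12 log2 units (SE 0.18, adjusted p = 0.00166) and Timp1, an inhibitor of such proteases, by 1.11 (SE 0.15, adjusted p = 8.48e-04). The 1 that rose was Mmp8, the collagenase of neutrophils, with 45.7, 35.7, 24.3 and 56.9 CPM in saline in TM, against 5.75, 10.2 and 18.2 CPM in naive-titled saline (1.93 ± 0.29, adjusted p = 0.00124). Of 26 other matrix proteins 16 were lower and none was higher, among them Sparc, Postn and Tnc, which bone and fibroblasts both make (−1.23 ± 0.23, −1.42 ± 0.26 and −1.47 ± 0.29; adjusted p = 0.00328, 0.00276 and 0.00441). Against the M-titled libraries alone the lower counts were 13 of 20 collagens, 10 of 21 proteases and inhibitors, 12 of 26 other matrix proteins and 8 of 18 meningeal fibroblast genes. With all 22 dura libraries in the fit 1 gene was lower in each of these 4 groups, and against the F-titled libraries alone the counts were 9, 6, 10 and 6.

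Transcripts of neutrophils, which mature in marrow, rose. Of 18 neutrophil genes 16 were higher and none was lower, with a median log2 fold change of 1.63. Ngp, a granule protein of maturing neutrophils (chr9:110419808-110423012), had 362, 352, 253 and 653 CPM in saline in TM, against 57.8, 91.5 and 156 CPM (lowest, median, highest) in naive-titled saline (2.10 ± 0.30, adjusted p = 9.61e-04). Cxcr2, a chemokine receptor of mature neutrophils, had 13.8, 10.6, 8.5 and 20.5 CPM in saline in TM, against 1.07, 2.49 and 5.95 CPM in naive-titled saline (2.22 ± 0.35, adjusted p = 0.00165). Library 4 held the most of both, and library 3 the least among saline in TM. Mpo, myeloperoxidase of immature granules, had 27.9, 51.9, 14.4 and 59.8 CPM in saline in TM, against 6.25, 13.3 and 18.4 CPM in naive-titled saline and overlapped (1.60 ± 0.40, adjusted p = 0.0121). Genes of early and of late neutrophil granules were thus both among those that rose.

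Among genes of mature B and plasma cells 8 of 10 were higher and 1 was lower. Igj (Jchain), the joining chain of secreted IgA and IgM, had 325, 176, 221 and 147 CPM in saline in TM, against 24.8, 29.5 and 48.3 CPM in naive-titled saline (2.76 ± 0.23, adjusted p = 8.17e-05). Cd79a, a signalling chain of the B cell receptor, had 28.5, 36.4, 32.5 and 30.3 CPM in saline in TM, against 8.95, 12.4 and 17 CPM in naive-titled saline (1.37 ± 0.15, adjusted p = 3.22e-04). Library 1 was highest for Igj and lowest for Cd79a, so the order of libraries differed between the 2 genes. Xbp1, a transcription factor that plasma cells share with many secretory cells, was lower (−0.36 ± 0.12, adjusted p = 0.0397), and missed the threshold when any of 6 single libraries was left out (adjusted p = 0.0702 to 0.108). Of 12 genes of B cell precursors 3 were higher. The 2 alpha globin genes summed to 1845 ± 539 CPM in saline in TM and to 1422 ± 497 CPM in naive-titled saline (SD, n = 4 and 6), with overlap.

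Against the M-titled libraries alone 6 of 18 neutrophil genes and 5 of 10 genes of mature B and plasma cells were higher, 1 of the 10 was lower, and with all 22 dura libraries 3 and 4 were higher. Igj and the salivary genes share a tissue, since plasma cells of glands make joining chain; the part of gland, marrow or dura in its level was not tested. Summed gland levels were 278.8, 382.2, 331 and 450.6 CPM in libraries 1 to 4 of saline in TM, against 137 to 212.4 CPM in naive-titled saline. That sum also holds general epithelial genes such as Krt8 and Krt18. In library 4, which had the lowest Igj, Spt1 and Scgb2b24 made up 87.9 and 30.2 CPM of that sum. How Igj follows the gland level was not tested.

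**Figure D2:**
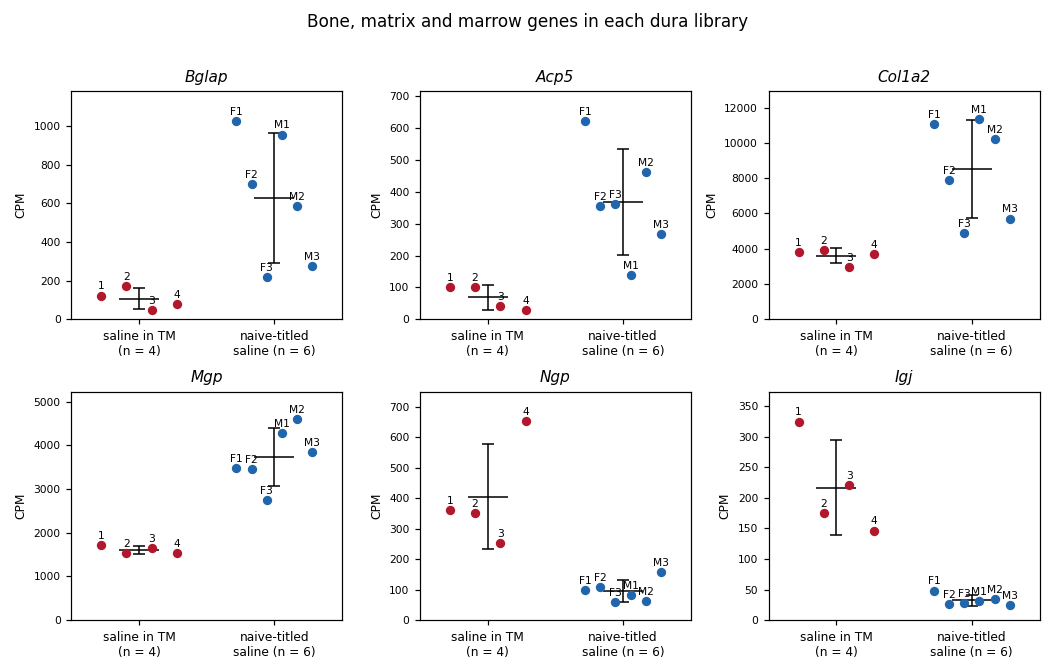
Level of 6 genes in each library (CPM, linear axis from 0; points are libraries, bars with whiskers mean ± SD, saline in TM left, n = 4, naive-titled saline right, n = 6). Bglap, Acp5, Col1a2 and Mgp lie lower in saline in TM without overlap, and Ngp and Igj lie higher, with Ngp at 653 CPM in library 4 and Igj at 325 CPM in library 1.

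Resident immune cells of the dura moved less. Of 21 macrophage genes 11 were lower and none was higher (median −0.37), against 11 with the M-titled libraries alone, 3 with the F-titled ones and none with all 22 dura libraries in the fit. Without library 2 of saline in TM 7 were lower and 1 was higher. Pf4, a chemokine of border-associated macrophages, had 35.7, 28.5, 27.8 and 32.7 CPM in saline in TM, against 44.6, 58.7 and 65.4 CPM (lowest, median, highest) in naive-titled saline (−0.88 ± 0.11, adjusted p = 6.86e-04). Cbr2, a carbonyl reductase found in tissue macrophages, had 64.1, 66.2, 62.6 and 74.3 CPM in saline in TM, against 89.6, 110.2 and 139.8 CPM in naive-titled saline (−0.75 ± 0.11, adjusted p = 0.00124). C1qa, a complement chain that most macrophages make, was at 261 to 345 CPM in saline in TM and at 264 to 426 CPM in naive-titled saline and was not called (−0.16 ± 0.12, adjusted p = 0.349). The saline in TM values of Pf4 and Cbr2 lie below every naive-titled library, and those of C1qa among them.

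None of 15 genes of dendritic cells and MHC class II was called; 1 of 14 genes of T and NK cells was lower (3 were higher without the naive-titled M2). Of 14 mast cell genes 3 were higher, 1 of them Tph1, counted among the pineal genes too, and 2 were lower. The lower count was 0 without F1, F2, M1, M2 or library 2 or 4 of saline in TM, and 1 without F3 or M3. Against the M-titled libraries alone 1 mast cell gene was higher and none was lower. Cpa3, the mast cell carboxypeptidase, had 70.8, 51, 78.2 and 32.9 CPM in saline in TM, against 63.3, 76.5 and 108 CPM in naive-titled saline (−0.51 ± 0.23, adjusted p = 0.106). Vessels were close to even: of 19 endothelial genes 1 was higher and 1 was lower (5 and 0 without library 1). Of 20 interferon-induced genes 8 were lower and none was higher (median −0.82). Isg15, a ubiquitin-like protein that interferon induces, had 20.4, 13.4, 9.23 and 18.5 CPM in saline in TM, against 26.3, 31.3 and 80.2 CPM in naive-titled saline (−1.40 ± 0.35, adjusted p = 0.0122). Irf7, an interferon-induced transcription factor, was highest in the naive-titled library M2 at 119.9 CPM, with 39.6 to 62.6 CPM in the other 5 and 29.9 to 40.4 CPM in saline in TM; its call (adjusted p = 0.0388) was lost without any 1 of 6 libraries (0.0572 to 0.0994). The count of interferon genes called lower ran from 3 without library 2 or without library 3 of saline in TM to 13 without the naive-titled M3, and was 0 with all 22 dura libraries in the fit. Against the M-titled libraries alone it was 7.

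**Figure D3:**
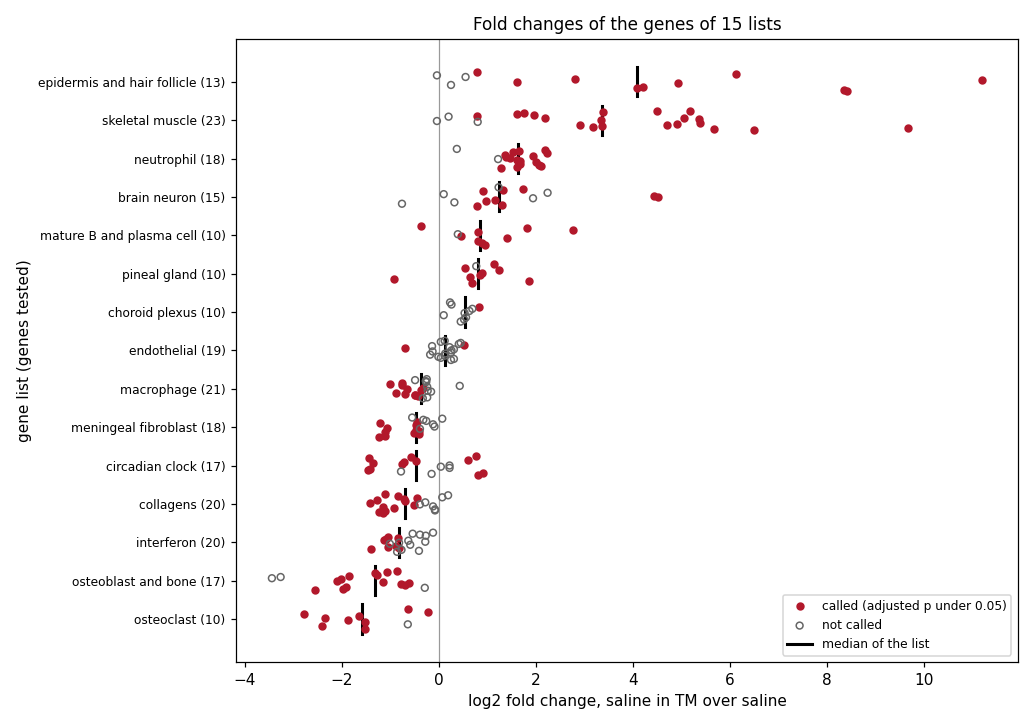
Log2 fold change (saline in TM over naive-titled saline) of each tested gene in 15 gene groups; filled points passed the test, open points did not, and the bar is the group's median. Muscle, epidermis and neutrophil genes (median 1.63) lie mostly above 0, where 9 muscle and 5 epidermis genes passed the filter on low counts through saline in TM alone, and osteoclast (−1.59) and bone genes (−1.32) mostly below it.

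Genes of the circadian clock differed in both directions. The clock is a feedback loop in which ARNTL (BMAL1) with CLOCK or NPAS2 switches on Per, Cry, Nr1d and D-box factor genes from E-box motifs, and PER and CRY proteins then block it. In most tissues the Per and D-box genes therefore peak at another time of day than Arntl and Npas2. The hour at which tissue was taken is not in the labels. Of 17 clock genes 8 were lower and 4 were higher, with a median log2 fold change of −0.48. Without library 2 of saline in TM 2 were higher, with Npas2 at an adjusted p of 0.0608 and Nfil3 at 0.0595, and Nr1d2 (0.0542) and Hlf (0.101) were no longer among the lower ones.

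The 8 lower genes were Per2, Per3, Nr1d2, Dbp, Tef, Hlf, Bhlhe41 and Gm129 (Ciart). Per3 (chr4:150997018-151044707) had 50.5, 37.7, 46.4 and 41.5 CPM in saline in TM, against 88.5, 118 and 143 CPM (lowest, median, highest) in naive-titled saline (−1.42 ± 0.13, adjusted p = 1.23e-04). Per2 had 15, 9.47, 11.6 and 7.56 CPM in saline in TM, against 20.1, 29.1 and 41.6 CPM in naive-titled saline (−1.45 ± 0.22, adjusted p = 0.00126). Both PER genes were lower in every saline in TM library than in any naive-titled one. Dbp, a D-box transcription factor, had 106, 70.6, 113 and 56.8 CPM in saline in TM, against 117, 218 and 301 CPM in naive-titled saline (−1.35 ± 0.28, adjusted p = 0.00554), and its relative Tef fell by 0.71 (SE 0.11, adjusted p = 0.00155). Ciart, a repressor of the loop, had 4.86, 2.48, 3.04 and 2.1 CPM in saline in TM, against 4.74, 6.96 and 14.5 CPM in naive-titled saline and overlapped through library 1 (−1.44 ± 0.35, adjusted p = 0.0103).

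Arntl, Npas2 and Nfil3 were among the 4 higher genes. Arntl had 52.1, 71.7, 52.9 and 71 CPM in saline in TM, against 24.8, 34.8 and 48.2 CPM in naive-titled saline (0.81 ± 0.19, adjusted p = 0.00792). Npas2 had 13.5, 19.4, 16.5 and 16.8 CPM in saline in TM, against 5.17, 8.74 and 13.7 CPM in naive-titled saline (0.90 ± 0.25, adjusted p = 0.0204). Nr1d1, a repressor of Arntl, was not called, with 249.6 to 476 CPM in saline in TM and 198 to 372 CPM in naive-titled saline (0.22 ± 0.21, adjusted p = 0.437). Per1 did not pass the test, with 45.7 to 89 CPM in saline in TM and 54.3 to 169 CPM in naive-titled saline (−0.78 ± 0.29, adjusted p = 0.0614). Against the M-titled libraries alone 3 clock genes were lower (Per2, Per3 and Tef) and none was higher, against the F-titled ones 8 were lower and 3 were higher, and with all 22 dura libraries 4 were lower and 2 higher. The difference between these counts was not tested.

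The letters through which the loop is known to act were searched for in promoters. Of 15 clock genes with a promoter window (250 bases before to 50 after the start, RefSeq, GRCm38.p6), an E-box (CACGTG, both strands) was found in 3 of the 7 lower (Tef, Bhlhe41 and Ciart), 0 of the 3 higher and 2 of the 5 that were not called, against 7.15% of 32851 promoters. Some genes had several windows and counted if any held the letters, while the shares are per promoter, so the units differ. Per2, also lower, had no window. A D-box (TTATGTAA, both strands) was found in 1 of the 7 lower genes, Per3, and in none of the others, against 0.938% of promoters. The letters AGGTCA, part of the RORE motif, were searched for too. They were found in 2 of the 3 higher genes (Arntl and Nfil3) and 1 of the 7 lower (Nr1d2). Of the 5 that were not called, 2 held them (Clock and Per1), against 16.3% of promoters. Per3 (chr4:151044616-151044915, minus strand) holds the D-box letters in 2 places, written in capitals, and Ciart (chr3:95882179-95882478, minus strand) holds the E-box in 3 places, also in capitals.
Per3: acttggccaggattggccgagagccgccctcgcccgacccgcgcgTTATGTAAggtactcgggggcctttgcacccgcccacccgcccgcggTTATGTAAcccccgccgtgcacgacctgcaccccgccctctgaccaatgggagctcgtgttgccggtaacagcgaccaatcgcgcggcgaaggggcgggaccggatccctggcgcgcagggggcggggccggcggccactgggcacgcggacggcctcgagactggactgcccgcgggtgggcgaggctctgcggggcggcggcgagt
Ciart: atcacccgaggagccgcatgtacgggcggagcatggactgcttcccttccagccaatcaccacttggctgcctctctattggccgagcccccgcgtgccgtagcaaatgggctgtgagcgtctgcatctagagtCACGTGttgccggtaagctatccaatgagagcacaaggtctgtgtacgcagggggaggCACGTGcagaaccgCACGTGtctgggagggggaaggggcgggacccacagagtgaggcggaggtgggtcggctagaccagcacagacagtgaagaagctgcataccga
Both sequences are shown because Per3 had the smallest p among the clock genes and Ciart the most E-boxes. A match describes letters in the window and is not evidence of binding in these samples.

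**Figure D4:**
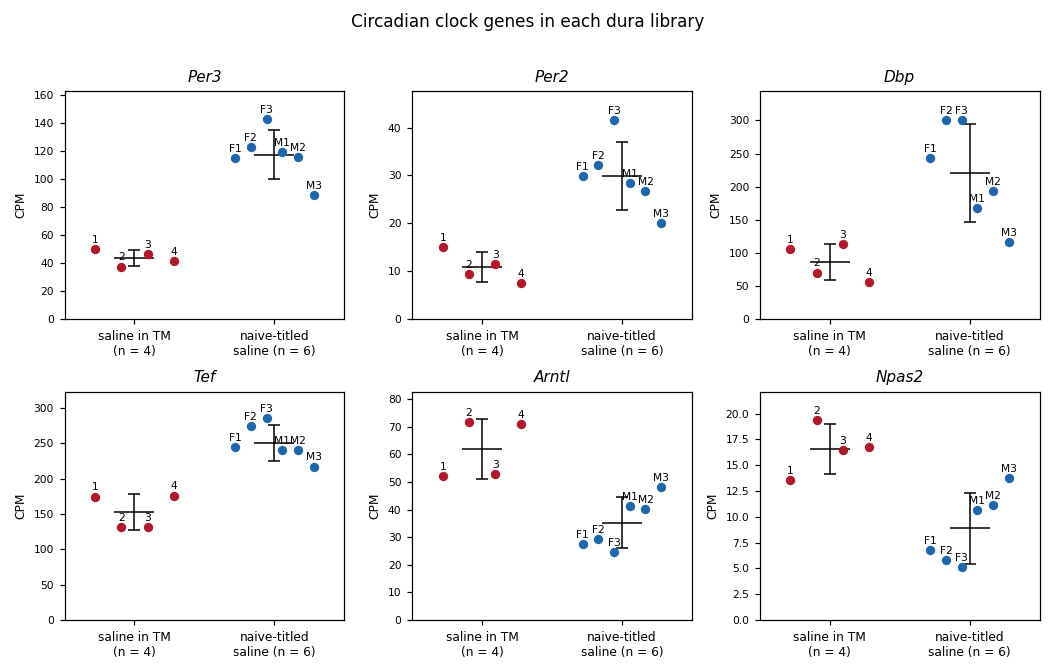
Level of 6 clock genes in each library (CPM, linear axis from 0; points are libraries, bars with whiskers mean ± SD, saline in TM left, n = 4, naive-titled saline right, n = 6). Per3, Per2, Dbp and Tef lie lower in saline in TM, Arntl and Npas2 lie higher, and for Dbp, Arntl and Npas2 the M-titled libraries lie nearer to saline in TM than the F-titled ones do.

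Genes that glucocorticoids induce, which follow time of day and stress, were lower in 4 of 18 cases and higher in 2 (1 without library 3). Tsc22d3 (GILZ), a glucocorticoid-induced leucine zipper protein, had 276, 159, 196 and 264 CPM in saline in TM, against 439, 461 and 562 CPM (lowest, median, highest) in naive-titled saline (−1.12 ± 0.15, adjusted p = 8.24e-04). Immediate early genes were split, with 4 of 21 higher (2 without library 2) and 4 lower, counts near the background of 15% and 14.8%. Fos, a subunit of AP-1, had 57.2, 81.2, 140.4 and 85.4 CPM in saline in TM, against 26.6, 35.1 and 43.6 CPM in naive-titled saline (1.36 ± 0.21, adjusted p = 0.00149). Klf2, an endothelial flow-responsive factor, had 119.7, 85, 134 and 162 CPM in saline in TM, against 174, 228 and 306 CPM in naive-titled saline (−0.88 ± 0.19, adjusted p = 0.00633). Neither gene overlapped between the groups, and they moved in opposite directions. Against the M-titled libraries alone 1 glucocorticoid gene was higher and 5 were lower. For immediate early genes these counts were 1 and 3.

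Single inflammatory genes were called in both directions. Of 26 cytokines and chemokines 3 were higher and 3 were lower (5 lower without the naive-titled F3, 1 without library 3). These counts lie near the background of 15% and 14.8% and describe single genes only. Against the M-titled libraries alone none was higher and 2 were lower. Il1b, interleukin 1 beta, which neutrophils also make, had 8.51, 9.07, 6.11 and 8.49 CPM in saline in TM, against 2.34, 4.57 and 7.02 CPM in naive-titled saline (0.84 ± 0.24, adjusted p = 0.0228; 0.063 without library 2). Il33, an alarmin of fibroblasts and barrier cells, had 85.5, 85.7, 88.5 and 61 CPM in saline in TM, against 100, 133 and 163 CPM in naive-titled saline (−0.70 ± 0.14, adjusted p = 0.0048). Ccl2, a chemokine that draws monocytes, was at 4.56 to 5.49 CPM in saline in TM and at 3.24 to 8.66 CPM in naive-titled saline and was not called (−0.09 ± 0.26, adjusted p = 0.813). Of 14 acute phase and damage genes 3 were higher, all of them known from neutrophils or liver (Lcn2, Hp and Orm1), and 4 were lower. Orm1 passed the filter on low counts only through saline in TM. Cebpb, a transcription factor of the acute phase, had 12.6, 9.32, 8.46 and 10.8 CPM in saline in TM, against 26.7, 30.7 and 47.7 CPM in naive-titled saline (−1.71 ± 0.19, adjusted p = 3.90e-04). Heat shock and unfolded protein genes were lower in 8 of 22 cases and higher in 2 (5 lower without library 3, M1 or M2; 1 higher without F1 or library 2), and cell cycle genes lower in 1 of 22 (3 were higher without library 3).

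Genes tied to headache and pain showed single differences. In the family of CGRP, adrenomedullin and related peptides, 2 of 12 genes were higher and 3 were lower (5 lower without the naive-titled M3 or without library 1, and 1 higher without any 1 of 8 libraries). Calca, which codes for CGRP and calcitonin, had 5.87, 2.18, 2.43 and 1.71 CPM in saline in TM, against 4.71, 6.16 and 8.85 CPM (lowest, median, highest) in naive-titled saline, with overlap through library 1 (−1.09 ± 0.33, adjusted p = 0.0272). Without any 1 of 5 single libraries Calca missed the threshold (adjusted p = 0.0546 to 0.0773). Ramp2, a subunit of adrenomedullin receptors, fell by 0.48 (SE 0.10, adjusted p = 0.00554). Vipr2, a receptor for VIP and PACAP, rose, with 45, 30.8, 22.8 and 42.1 CPM in saline in TM, against 12.4, 14.3 and 21.2 CPM in naive-titled saline (1.17 ± 0.21, adjusted p = 0.00257).

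Of 19 ion channels of nociception 4 were higher and 3 were lower. Asic2, an acid-sensing channel, rose by 1.19 (SE 0.19, adjusted p = 0.00177), and Piezo2, a mechanosensitive channel, had 11.5, 9.32, 14.6 and 13.3 CPM in saline in TM, against 15.8, 17.8 and 19.1 CPM in naive-titled saline (−0.52 ± 0.12, adjusted p = 0.00996). Among genes of prostaglandins, kinins and histamine 2 of 21 were higher and 5 were lower (1 higher without any 1 of 7 libraries). Ptgis, prostacyclin synthase, had 116, 87, 84.6 and 97.8 CPM in saline in TM, against 145, 198 and 228 CPM in naive-titled saline (−0.99 ± 0.15, adjusted p = 0.00116). Ptgfr, the prostaglandin F receptor, fell by 1.26 (SE 0.24, adjusted p = 0.00337). Of 16 neurotrophins and receptors 3 were higher and 2 were lower. Ntf3, neurotrophin 3, had 19.8, 21.8, 20.9 and 20.9 CPM in saline in TM, against 9.98, 11.2 and 14.5 CPM in naive-titled saline, one of the tightest sets in saline in TM (0.86 ± 0.11, adjusted p = 6.60e-04). With 12 to 21 genes per group, these counts lie near the background of 15% and 14.8% and describe single genes only. Against the M-titled libraries alone, 1 gene was higher and 2 were lower in both the CGRP family and the ion channels. Those counts were 1 and 3 for prostaglandins, kinins and histamine, and 2 and 1 for neurotrophins and receptors.

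Some large changes belong to near-identical copies. Ccl21b, one of several copies of the CCR7 ligand CCL21, had 32.6, 104, 66.6 and 56.5 CPM in saline in TM and was at 0 in all naive-titled libraries, at least 519.7-fold higher by the 3-count floor. Ccl21c went the other way, with 2.22, 0, 3.64 and 1.77 CPM in saline in TM, against 15.3 to 27.4 CPM in naive-titled saline. The 6 copies in the files summed to 170.6 ± 62.9 CPM in saline in TM and to 190.7 ± 37.7 CPM in naive-titled saline (SD, n = 4 and 6), with overlap. The sum thus differed by less than the spread, and the single copies are uncertain.

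Other genes of high rank, all but Tnn, belong to none of the groups above. Padi2, a peptidylarginine deiminase, had 194, 203, 191 and 242 CPM in saline in TM, against 67.5, 85.8 and 102 CPM in naive-titled saline (1.27 ± 0.12, adjusted p = 1.32e-04). Hspb6, a small heat shock protein of muscle and nervous tissue, had 104, 146, 157 and 123 CPM in saline in TM, against 40.7, 51.6 and 63.4 CPM in naive-titled saline (1.39 ± 0.14, adjusted p = 2.60e-04). Lrrc15, a membrane protein of matrix-forming fibroblasts and osteoblasts, had 24.4, 20.1, 12.9 and 13.6 CPM in saline in TM, against 38.2, 63.4 and 89 CPM in naive-titled saline (−1.84 ± 0.29, adjusted p = 0.00153). Ang, angiogenin, had 2.6, 6.48, 2.06 and 6.33 CPM in saline in TM, against 14, 15.4 and 19.3 CPM in naive-titled saline (−1.86 ± 0.29, adjusted p = 0.00133). All 4 separated the groups in every library. Gpha2, Bmp3, Ryr3, Wif1, Vwc2 and Tnn, the last counted among the other matrix proteins too, were among the 15 largest falls as well, by 1.58 to 1.92 log2 units. Across genes, the log2 fold change had a Spearman rho of 0.154 with GC content (14845 genes) and of 0.031 with effective length (15828 genes), given as a description, since genes are not independent replicates.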

How the data were processed

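Poly(A)-selected, strand-marking libraries were sequenced, and per the submitters' processing notes Trim Galore and RSEM with build mm10 were used (roles and versions not given there; the aligner, the gene annotation's release and how RSEM treated strand were not stated). The authors deposited RSEM's expected counts per gene with TPM, FPKM, length and effective length; FPKM was not used. Expected counts of 23412 genes were rounded and the 10 libraries fitted alone with edgeR 4.0.16 (quasi-likelihood test, TMM scaling, filterByExpr, R 4.3.3), with Benjamini-Hochberg adjusted p under 0.05 as a call. The fit was tested on simulated data. CPM are counts per TMM-scaled library total; fold changes are saline in TM over naive-titled saline. TPM were used for the share of masseter level and, as log2(TPM + 1) in limma 3.58.1, as an alternative; DESeq2 1.42.0 was another. Coordinates and promoters are RefSeq GRCm38.p6 (the mm10 build), which held 21563 of the gene names.

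Libraries were grouped by their treatment label. The comparison and the gene lists were chosen with earlier results of these data known. Genes were named by a rule: the 15 largest rises and falls (at least 1 log2 unit, 5 CPM in a group, no overlap), the 10 smallest p at 50 CPM or more, in each list the first 4 members and up to 8 called ones, the 5 genes that most single out each library, and tissue genes at 20 CPM or more in any library. Eif2s3y, Foxc1, Slc47a1, Myh7, Tchh, Krt15, Col18a1, Mpo, Xbp1, Cpa3, Nr1d2, Hlf, Nfil3, Nr1d1 and Ccl2 fall outside it and were picked after their values were seen. No 2 libraries of a group were alike within sampling noise: over 21 pairs chi-square per gene was 14.95 to 137.14. Mitochondrial transcripts were not analysed here.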

Additional observations from a re-analysis of the deposited data

Results flagged for a closer look

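Single libraries that stood far from the rest of their group were looked for in 254 sets of values (127 genes and 3 library measures, each group on its own, leaving out sets with no spread); 30 (11.8%) were flagged. Chance flags about 1 in 20 of unselected sets, but some of these genes were named because they single out a library, so the share is not set against that rate.

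Library 3 of saline in TM held far more of 6 epidermal genes than the other 3: Krt10 at 352.5 CPM, Hrnr at 173 CPM, Dsg1a at 36.3 CPM, Dsc1 at 26 CPM, Calm4 at 64 CPM and Spink5 at 18.6 CPM. Library 2 stood above the others for 4 neuronal genes, with Camk2a at 147 CPM, Syn1 at 134.5 CPM, Nrgn at 117 CPM and Lamp5 at 26.2 CPM, and at 0.0507 CPM of Prl. Library 4 was high for Spt1 at 87.9 CPM, Obp1a at 70.9 CPM and Orm1 at 1.23 CPM, and low for Postn at 93.2 CPM and Il33 at 61 CPM.

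In naive-titled saline, library F3 held 529 CPM of Bpifb9b, 121 CPM of Obp1a and 0.164 CPM of Bpifa2. Library M2 was high for Irf7 at 119.9 CPM, Prl at 2.83 CPM and Gh at 2.38 CPM, and low for Chrnb4 at 278 CPM and Scg2 at 179.5 CPM; it also held the only reads of Calm4 and Spink5 in the group, at 0.0411 CPM each. Library M3 was high for Mepe at 40.6 CPM, Lcn2 at 60.8 CPM and Hp at 21.4 CPM, and the share of counts in its 50 most abundant genes was low, at 12.93%.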

How the results depend on the processing

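Beside 4721 genes called in the main fit, 789 were called with all 22 dura libraries in the fit, 1539 against the F-titled and 2160 against the M-titled libraries alone. The fits against 3 libraries hold fewer samples. The fit of all 22 mixes paired-end collagenase libraries with single-end ones, and the cause of its count was not tested. Leaving out 1 library gave 3488 (without library 2 of saline in TM) to 5400 (without library 1). Other scalings, filters, dispersion fits, tools and a length offset gave 4551 to 5325, and 2 settings added after seeing the data gave 5026 (GC offset) and 3622 (without F3 and M3). Of 107 named called genes, 103 kept their call in limma voom, 102 on log2(TPM + 1), 82 against the M-titled libraries and 34 with all 22. Among the 25 lost against the M-titled libraries were Foxc1, Slc47a1, Dsc1, Tchh, Lamp5, Tph1, Aanat, Ibsp, Alpl, Mpo and Scg2. Il1b, Hp, Calca, Piezo2, C3 and Slc1a2 were lost there too. The rest were the clock genes Arntl, Npas2, Nfil3, Nr1d2, Hlf, Dbp, Bhlhe41 and Gm129. Lamp5, at 4.14, gave −0.67 without library 2 and otherwise up to 4.59 without 1 library; the cause was not tested. With a replicate block 4136 genes were called and 97 of the 107 kept their call, but the numbers only name the libraries: same-numbered libraries correlated at −0.369 to 0.366. Depth limits the genes of lowest count most, and floors cover counting error only. Gene lists with few calls moved by a few genes between settings.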

Other observations

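Genes of hypoxia and glycolysis were higher in 5 of 19 cases and lower in 1. Gapdh, a glycolytic enzyme, rose by 0.67 ± 0.11 log2 units (edgeR, adjusted p = 0.0021) and Hk2, a hexokinase of muscle and other tissues, by 0.87 ± 0.16 (adjusted p = 0.0034). Complement genes were higher in 2 of 18 cases and lower in 4, a lower count that single libraries move. It was 0 without library 3 of saline in TM, on log2(TPM + 1) values and with all 22 dura libraries, 1 without F1, M1, M2 or library 2, 2 without F2 or library 4, and 6 without F3, and 1 was higher without F1, F2, F3, M1, M2, M3 or library 3. Against the M-titled libraries alone no complement gene was higher and 2 were lower. C3, the central component, was at 61, 41.6, 34.6 and 62.2 CPM in saline in TM and at 18.7 to 39.8 CPM in naive-titled saline (0.85 ± 0.21, adjusted p = 0.0131). Of 10 genes of astrocytes and ependyma 1 was higher and 4 were lower. Slc1a2, a glutamate transporter of astrocytes and of the pineal gland, rose (0.81 ± 0.19, adjusted p = 0.0103) and S100b, a calcium-binding protein of glia, fell (−0.61 ± 0.12, adjusted p = 0.00359). Of 14 Schwann cell genes 2 were lower and none was higher; of 8 oligodendrocyte genes 1 was lower and none was higher. Of 5 pituitary genes 3 were higher and none was lower. Of the 3, Chga and Scg2 are granule proteins of many endocrine cells and neurons, and the other was Cga, a hormone subunit.

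Monocyte genes were higher in 4 of 12 cases and lower in 2, and genes of the arachnoid barrier and dural border higher in 1 of 14 and lower in 3. The lower count of the barrier genes was 6 without library 1 of saline in TM, and 0 against the F-titled libraries or with all 22 dura libraries. Of 30 ribosomal protein genes none was higher and 5 were lower. The lower count was 1 without F1, F2, M2 or library 2 or 3 of saline in TM, 2 without M3 and 10 without library 4, and 3 were higher without library 1. Genes of adipocytes, sensory neurons, pericytes and smooth muscle, the erythroid line, oxidative phosphorylation and nuclear or unspliced RNA gave at most 2 calls in either direction, and some of these calls were lost without single libraries.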
